A study of Mus musculus with 6 samples.

Results

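The genes described here are 10 members of the muscle atrophy programme, comprising 3 RING ubiquitin ligases (Trim63, Trim54 and Trim55), 4 F-box proteins (Fbxo32, Fbxo21, Fbxo30 and Fbxo31) and 3 FoxO transcription factors (Foxo1, Foxo3 and Foxo4). They were chosen by name, by matching their GENCODE mouse symbols to the Ensembl identifiers in the deposited gene tables, and all 10 were found among 53947 genes. The study sequenced total RNA, after removal of ribosomal RNA, from quadriceps of 3 HSA-LR and 3 WT samples. HSA-LR mice are transgenic for a human skeletal actin gene with an expansion of about 220 CTG repeats, and they model myotonic dystrophy type 1 (DM1), in which RNA with expanded CUG repeats sequesters MBNL splicing factors. The samples they are set against are labelled only as WT. The design text gives the HSA-LR mice an age of 12 weeks and names no other age. The tissues were gifts to the study, the transgene is expressed in skeletal muscle fibres, and strain, litter and sex are not given in the sources used here. Whether the samples of a group were taken from different animals is not stated, and the p-values below therefore refer to variation between samples, which may be technical.

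Muscle protein is degraded largely by the ubiquitin-proteasome system, in which an E3 ligase selects the protein to be tagged with ubiquitin. Fbxo32 (atrogin-1, the substrate-binding part of an SCF ligase) and Trim63 (MuRF1, a RING ligase of the sarcomere) are known as the leading markers of muscle wasting. FoxO factors activate both genes when insulin and IGF signalling is low, because the kinase Akt otherwise phosphorylates FoxO proteins and keeps them out of the nucleus.

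The promoter of Trim63 is printed because it holds a FoxO motif, and that of Fbxo31 because it is the only gene called below whose promoter is in the RefSeq table used (GRCm38.p6). Of the 10 genes, 7 were in that table. Shown are the 250 bases before each start site, 5′ to 3′ on the gene's strand, at chr4:134314870-134315119 (plus strand) for Trim63 and chr8:121578807-121579056 (minus strand) for Fbxo31, with capitals marking the FoxO motif.
Trim63: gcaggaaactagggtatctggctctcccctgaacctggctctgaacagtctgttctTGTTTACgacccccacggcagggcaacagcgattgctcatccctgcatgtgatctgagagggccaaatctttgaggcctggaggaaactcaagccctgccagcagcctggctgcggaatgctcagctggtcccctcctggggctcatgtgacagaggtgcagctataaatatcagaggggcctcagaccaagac
Fbxo31: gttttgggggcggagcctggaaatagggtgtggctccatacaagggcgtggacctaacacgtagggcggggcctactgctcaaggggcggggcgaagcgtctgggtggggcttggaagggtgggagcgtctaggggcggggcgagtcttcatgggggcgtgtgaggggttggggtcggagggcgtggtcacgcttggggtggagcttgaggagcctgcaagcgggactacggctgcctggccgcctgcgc
Windows running 250 bases before to 50 bases after each start were searched on both strands for the FoxO motifs GTAAACA and CAAAACA and for the E-box CANNTG. The matches in Trim63 do not share positions. Trim63 held 1 GTAAACA match, from -194 to -188 relative to the start, written TGTTTAC on the gene's strand. This motif occurred in 3.66% of 32544 promoter windows, and in none of the other 6 of the 10 genes with a window. CAAAACA occurred in 6.32% of all windows and in none of the 7. E-boxes, found in 72.3% of all windows, numbered 3 in Trim63, 2 in Trim54 and 1 in Foxo1. A match of letters describes the sequence and does not show that a factor binds there.

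The libraries held 11468959 to 13220792 expected counts in HSA-LR and 14048603 to 15023710 in WT. Expected counts are RSEM's estimates of reads per gene, and CPM are these counts on TMM-scaled library sizes. HSA-LR replicate 1 stood apart, with 43.9% of its counts on the non-coding RNAs 7SL and 7SK, against 18.8% and 24.0% in the other HSA-LR libraries and 14.1% to 15.5% in WT. The 11 myofibre markers were abundant in every library, and their summed level was 90516 to 181120 CPM in HSA-LR and 232015 to 267440 CPM in WT. Titin (Ttn) weighed most in this sum, averaging 55147 CPM in HSA-LR and 135279 CPM in WT. Of the 11 markers, 6 were lower in every HSA-LR library than in every WT library. Mb went the other way without overlap, averaging 2930 CPM in HSA-LR and 1976 CPM in WT. The 10 macrophage and leukocyte markers summed to 214 to 640 CPM in HSA-LR and 143 to 166 CPM in WT, and the 9 fibroblast markers to 3722 to 10659 CPM in HSA-LR and 2924 to 3154 CPM in WT. In each of these sums the groups did not overlap (exact permutation test, two-sided, p = 0.1 each, the smallest that 3 against 3 samples allow). By edgeR 5 macrophage and 2 fibroblast markers were called higher, against 9 and 6 by DESeq2 and 2 and 0 by limma-voom. Of the myofibre markers edgeR called 0 (3 lower and 1 higher at an unadjusted p below 0.05), DESeq2 3 lower and 1 higher, and limma-voom 1 lower. In these lists 0 markers were at 0 in all libraries. The endothelial, smooth muscle, adipocyte, satellite cell, erythroid and Schwann cell sums overlapped between groups. In bulk samples fewer cells of a type and less RNA per cell cannot be told apart. The part of this composition in the results below was not tested, apart from the values given with the libraries scaled to the myofibre markers.

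Of the 10 genes, 4 were lower in HSA-LR than in WT (Foxo4, Fbxo32, Trim55 and Fbxo31) and 0 were higher, at an adjusted p below 0.05 in edgeR's quasi-likelihood test over all 13576 genes tested. DESeq2 and limma-voom also called 4 lower and 0 higher, and edgeR's unadjusted p was below 0.05 for 5 lower and 0 higher. Without HSA-LR replicate 3, or without WT replicate 1, 2 or 3, edgeR called 1 of the 10 lower (Foxo4). Those fits called 135, 124, 168 and 163 genes lower among 13846 to 14001 tested, against 1016 of 13576 with all libraries. Without HSA-LR replicate 1 it called 4 of the 10 lower, and without HSA-LR replicate 2 it called 5. Among all genes those 2 fits called 1177 of 13908 and 1815 of 13960 lower. All 10 genes passed the filter on low counts. Across all genes tested, 7.48% were called lower and 4.28% higher. In 6 of the 10 genes every HSA-LR library lay below every WT library, against 20.0% of all genes tested. The median log2 fold change (HSA-LR over WT) was -0.40 over the 10 genes and 0.04 over all genes. Of the 10 genes, 9 had a negative and 1 a positive fold change. HSA-LR means of the called genes were 47.0% of WT for Foxo4, 51.0% for Fbxo32, 60.2% for Trim55 and 60.6% for Fbxo31.

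**Figure D1:**
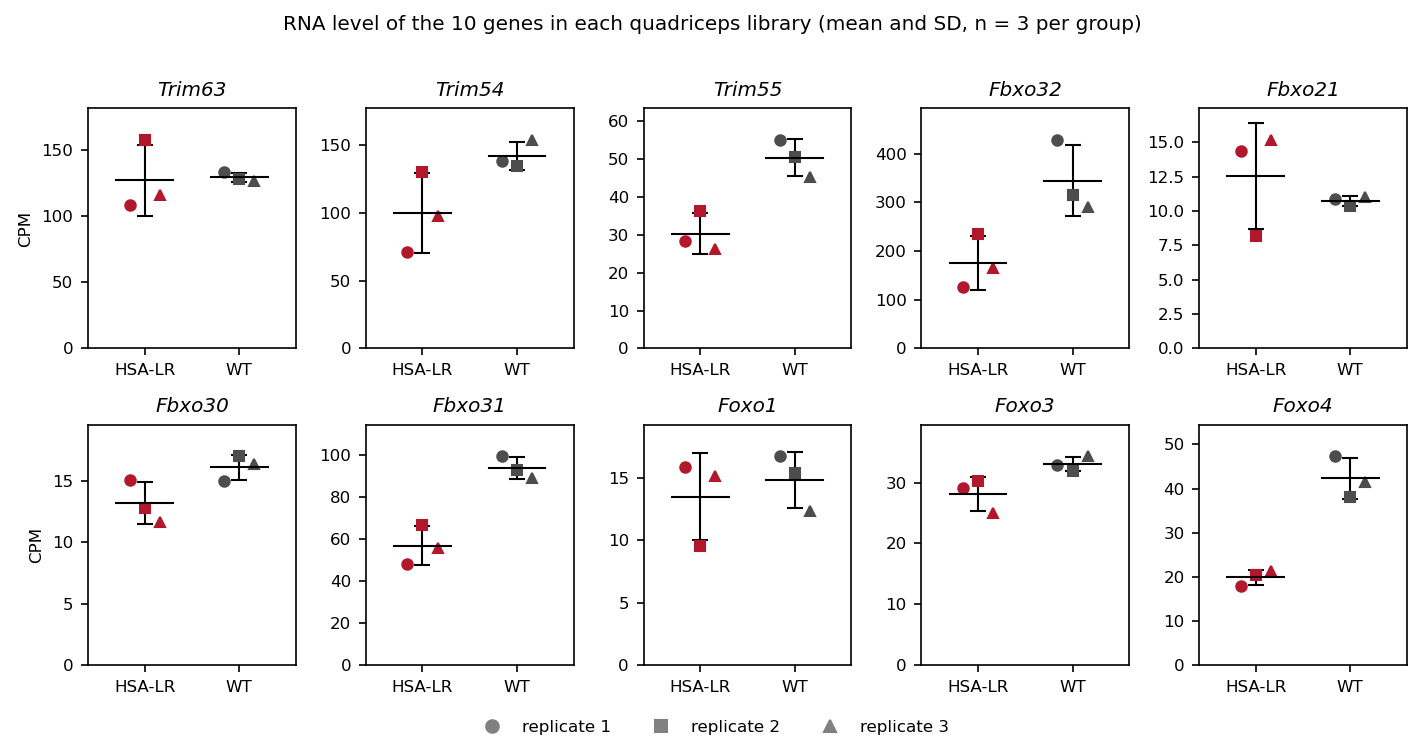
CPM (depth-scaled counts, vertical axes from 0) of the 10 genes in 3 HSA-LR libraries (red, left) and 3 WT libraries (grey, right), with a line at the mean and bars for the SD. Foxo4 lay between 18.0 and 21.4 CPM in HSA-LR and between 38.1 and 47.3 CPM in WT, while Trim63 averaged 127 CPM in HSA-LR and 129 CPM in WT.

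Among the RING ligases, Trim63 did not differ detectably while its relative Trim55 fell. Trim63 (ENSMUSG00000028834.14, GRCm39 chr4:134042393-134056948, plus strand) encodes MuRF1, which tags thick filament proteins such as myosin heavy chains for degradation. It measured 108, 158 and 116 CPM in HSA-LR replicates 1, 2 and 3, against 133, 128 and 126 CPM in WT replicates 1, 2 and 3. The WT range fell inside the HSA-LR range, and HSA-LR replicate 2 was the highest of all 6 libraries. Trim63 had a log2 fold change of -0.02 ± 0.16 (SE, adjusted p = 0.934 by edgeR), with a 95% interval of -0.39 to 0.35. Without HSA-LR replicate 1 it was 0.088. A difference of a size inside that interval was not excluded, and the interval is not a limit of detection.

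Trim55 (ENSMUSG00000060913.7, chr3:19698571-19746771, plus strand) encodes MuRF2, which associates with titin and microtubules. It measured 28.3, 36.4 and 26.3 CPM in HSA-LR, against 55.1, 50.6 and 45.3 CPM in WT. Every HSA-LR library lay below every WT library. Its fall was -0.73 ± 0.16 on the log2 scale (SE, adjusted p = 0.0230 by edgeR). The call was kept without HSA-LR replicate 1 (log2 fold change -0.68, adjusted p = 0.0188 by edgeR). It was lost without HSA-LR replicate 3 (adjusted p = 0.0881 by edgeR) or without WT replicate 1, 2 or 3 (adjusted p = 0.124, 0.0983 and 0.0753 by edgeR). With effective lengths as an offset the adjusted p was 0.0718 by edgeR. The abundance-weighted transcript length of Trim55 was 1696, 1603 and 1444 bases in HSA-LR, against 1659, 1788 and 1695 bases in WT.

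Trim54 (ENSMUSG00000062077.15, chr5:31273911-31298846, plus strand) encodes MuRF3, a sarcomeric partner of MuRF1 and MuRF2. It measured 71.1, 130 and 97.8 CPM in HSA-LR, against 138, 134 and 154 CPM in WT. The groups did not overlap, but HSA-LR replicate 2 lay within 5 CPM of the lowest WT library. The log2 fold change of -0.51 ± 0.21 did not pass (SE, adjusted p = 0.126 by edgeR, 95% interval -0.98 to -0.05). Without HSA-LR replicate 2 it was called, with a log2 fold change of -0.76 (adjusted p = 0.0142 by edgeR), and without HSA-LR replicate 1 it was -0.31 (adjusted p = 0.168 by edgeR).

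Among the F-box proteins, Fbxo32 and Fbxo31 fell, while Fbxo21 and Fbxo30 were not called. F-box proteins bind the substrate of an SCF complex, which joins them to cullin 1 through Skp1. Fbxo32 (ENSMUSG00000022358.8, chr15:58039275-58078741, minus strand) encodes atrogin-1, whose known substrates include MyoD and eIF3f. Its expected counts were 1328, 2914 and 2466 in HSA-LR, against 6056, 4741 and 3916 in WT. After scaling these were 126, 235 and 166 CPM in HSA-LR, against 428, 314 and 291 CPM in WT. The lowest WT library stood above the highest HSA-LR library, and both groups were spread widely (coefficients of variation of 31.4% in HSA-LR and 21.3% in WT). Fbxo32 fell with a log2 fold change of -0.97 ± 0.25 (SE, adjusted p = 0.0386 by edgeR), and it was -0.77 without HSA-LR replicate 1 (adjusted p = 0.0380 by edgeR). The call was lost without HSA-LR replicate 3 (adjusted p = 0.125 by edgeR) and without WT replicate 1, 2 or 3 (adjusted p = 0.1598, 0.108 and 0.0942 by edgeR).

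Fbxo31 (ENSMUSG00000052934.15, chr8:122276177-122305642, minus strand) encodes an F-box protein known for targeting cyclin D1 and, in starved or denervated mouse muscle, for being induced by FoxO factors. It measured 48.2, 66.6 and 55.7 CPM in HSA-LR, against 99.5, 92.8 and 89.3 CPM in WT. The groups did not overlap, and the gap between them was wider than the range of WT. For Fbxo31 the log2 fold change was -0.72 ± 0.15 (SE, adjusted p = 0.0204 by edgeR), and -0.61 without HSA-LR replicate 1 (adjusted p = 0.0120 by edgeR). It was not called without HSA-LR replicate 3 (adjusted p = 0.0843 by edgeR) or without WT replicate 1, 2 or 3 (adjusted p = 0.115, 0.0895 and 0.0841 by edgeR).

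Fbxo30 (ENSMUSG00000047648.14, chr10:11156770-11173806, plus strand) encodes MUSA1, a ligase repressed by BMP signalling in mouse muscle. It measured 15.1, 12.8 and 11.7 CPM in HSA-LR, against 14.99, 17.0 and 16.4 CPM in WT. HSA-LR replicate 1 reached the WT level and the other HSA-LR libraries lay below it. The log2 fold change was -0.29 ± 0.15 (SE, adjusted p = 0.219 by edgeR, 95% interval -0.63 to 0.05). Fbxo21 (ENSMUSG00000032898.10, chr5:118114795-118148269, plus strand) encodes SMART, which is needed for denervation atrophy in mice. It measured 14.4, 8.15 and 15.2 CPM in HSA-LR, against 10.9, 10.3 and 11.004 CPM in WT. It was the only one of the 10 with a positive log2 fold change, 0.23 ± 0.23 (SE, adjusted p = 0.525 by edgeR, 95% interval -0.29 to 0.75), and HSA-LR replicate 2 lay below WT while the others lay above.

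Of the 3 FoxO factors, Foxo4 fell and the others were not called. Foxo4 (ENSMUSG00000042903.9, chrX:100298073-100304479, plus strand) encodes the smallest of these Akt-regulated factors. It measured 18.0, 20.3 and 21.4 CPM in HSA-LR, against 47.3, 38.1 and 41.5 CPM in WT. The HSA-LR libraries agreed closely, including replicate 1, and the groups were far apart. The log2 fold change was -1.09 ± 0.14 (SE, adjusted p = 0.00521 by edgeR), and 2.11% of all genes tested had a lower value. Without HSA-LR replicate 1 it was -1.01 (adjusted p = 0.00199 by edgeR). It stayed called under 21 alternatives, each left-out library included, with adjusted p of at most 0.0408, but not with the myofibre marker scaling described below, which was added later.

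Foxo3 (ENSMUSG00000048756.12, chr10:42057837-42154007, minus strand) is the factor best known for activating Fbxo32 in wasting muscle. It measured 29.2, 30.3 and 25.0 CPM in HSA-LR, against 33.0, 31.9 and 34.4 CPM in WT. The groups did not overlap, yet the gap was smaller than 2 CPM and the log2 fold change of -0.23 ± 0.13 was not called (SE, adjusted p = 0.243 by edgeR, 95% interval -0.52 to 0.06). Foxo1 (ENSMUSG00000044167.7, chr3:52175757-52260642, plus strand), which also acts in fuel switching and fasting, measured 15.9, 9.52 and 15.2 CPM in HSA-LR, against 16.8, 15.4 and 12.3 CPM in WT. Its groups overlapped, and the log2 fold change was -0.14 ± 0.22 (SE, adjusted p = 0.697 by edgeR, 95% interval -0.62 to 0.35). Without HSA-LR replicate 1 the log2 fold changes of Fbxo30, Fbxo21, Foxo3 and Foxo1 were -0.39, 0.14, -0.25 and -0.25, and edgeR called none of them (adjusted p = 0.104, 0.739, 0.228 and 0.475).

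Scaling the libraries to the 11 myofibre markers, an alternative chosen after seeing the data, gave an all-gene median log2 fold change of 0.51, against 0.04 with TMM. The 4 genes called with TMM kept a negative fold change, and 0 of the 10 genes was called. Foxo4 was -0.63 (adjusted p = 0.0624 by edgeR) and Fbxo32 was -0.56 (adjusted p = 0.0677 by edgeR). Fbxo31 was -0.28 (adjusted p = 0.161 by edgeR) and Trim55 -0.28 (adjusted p = 0.280 by edgeR). Trim63 became 0.41 (adjusted p = 0.0776 by edgeR), and Foxo1, Foxo3 and Fbxo30 also turned positive, at 0.38, 0.24 and 0.20. Trim54 was -0.10 (adjusted p = 0.591 by edgeR) and Fbxo21 was 0.74 (adjusted p = 0.150 by edgeR). With the share of 7SL and 7SK as a covariate Foxo4 alone of the 10 genes was called, Fbxo32 was -0.55 (adjusted p = 0.171 by edgeR), Trim55 was -0.59 (adjusted p = 0.0834) and Fbxo31 was -0.50 (adjusted p = 0.0593). With that covariate Trim54 was -0.11 (adjusted p = 0.714 by edgeR). Fbxo32 also lost its call with effective lengths as an offset (adjusted p = 0.0542 by edgeR) and with the trend on transcript length removed (adjusted p = 0.0888 by edgeR). On the log2(TPM + 0.1) scale, tested with limma-trend, Trim55 (adjusted p = 0.111) and Fbxo31 (adjusted p = 0.0557) were not called.

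**Figure D2:**
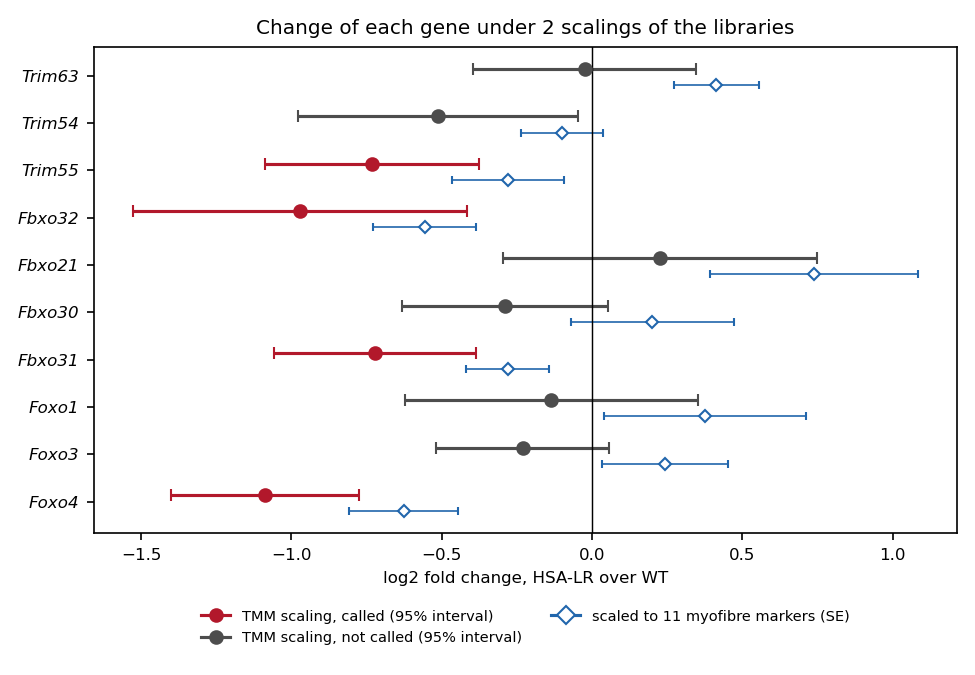
Log2 fold changes (HSA-LR over WT) of the 10 genes, with TMM scaling as circles with 95% intervals (red where called) and scaling to 11 myofibre markers as open diamonds with SE bars. Foxo4 lay at -1.09 and -0.63 under these scalings, and Trim63 at -0.02 and 0.41.

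HSA-LR replicate 1 lay lowest against the WT mean for Fbxo32 (-1.45 on the log2 scale), Trim54 (-0.9996) and Fbxo31 (-0.96). HSA-LR replicate 2 lay nearest to WT for those genes, at -0.55, -0.13 and -0.49, and HSA-LR replicate 3 lay between them. The geometric mean of the myofibre markers had the same order, at 5979 CPM in HSA-LR replicate 1, 8078 in replicate 3 and 9372 in replicate 2, against 10015 to 10864 CPM in WT. Trim63 had this order too, the other 6 genes did not, and the genes named here were picked after their values were seen. HSA-LR replicate 2 was the lowest of the HSA-LR libraries for Fbxo21 and Foxo1, and HSA-LR replicate 3 for Trim55, Fbxo30 and Foxo3. Foxo4 was lowest in HSA-LR replicate 1 and spanned -1.23 to -0.99 over the HSA-LR libraries.

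**Figure D3:**
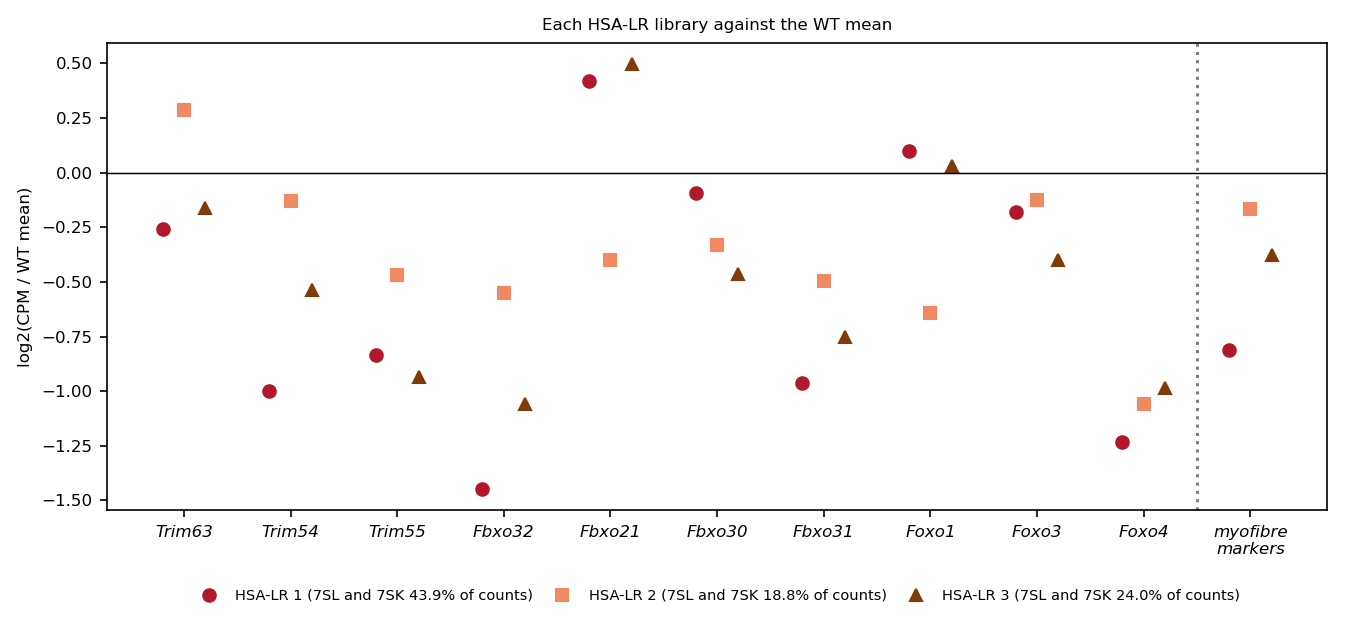
Log2 ratio of each HSA-LR library to the WT mean (vertical axis, 0 is the WT mean) for the 10 genes and, right of the dotted line, the geometric mean of 11 myofibre markers. HSA-LR replicate 1, with 43.9% of counts on 7SL and 7SK, lay lowest for Fbxo32 (-1.45), Trim54 and Fbxo31.

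Levels of different genes were compared per transcript length, as TPM rescaled to the same sum over protein coding genes in every library, since 7SL and 7SK dominate the deposited TPM. In HSA-LR the highest were Trim54 at 172 ± 40.5 and Trim63 at 166 ± 23.9 TPM (SD, n = 3), which did not differ beyond their spread. In WT Trim54 (236 ± 14.95 TPM) stood above Trim63 (161 ± 4.16 TPM). Fbxo32, Fbxo31 and Trim55 came next, within each other's spread, at 56.8 ± 14.1, 48.0 ± 4.23 and 47.4 ± 4.72 TPM in HSA-LR. The same 3 genes measured 107 ± 21.5, 82.1 ± 10.7 and 68.5 ± 7.42 TPM in WT, in that order in every library. There Fbxo32 (lowest 89.4 TPM) lay just above Fbxo31 (highest 88.6 TPM), and the ranges of Fbxo31 and Trim55 overlapped. Foxo4 led the FoxO factors at 15.7 ± 2.10 TPM in HSA-LR and 29.9 ± 2.88 TPM in WT. Foxo3 (9.99 ± 0.989 TPM in HSA-LR, 10.8 ± 0.566 TPM in WT) and Fbxo30 (9.76 ± 0.904 TPM in HSA-LR, 11.5 ± 0.940 TPM in WT) were alike within spread. Fbxo21 (7.63 ± 2.67 TPM in HSA-LR, 6.63 ± 0.623 TPM in WT) and Foxo1 (3.59 ± 1.09 TPM in HSA-LR, 3.68 ± 0.569 TPM in WT) were lowest.

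Shares within a library do not depend on the scaling between libraries. Foxo4 made up 49.2%, 53.6% and 58.1% of the summed FoxO TPM in HSA-LR, against 69.1%, 66.0% and 66.6% in WT. Foxo3 made up 36.3%, 37.5% and 29.1% in HSA-LR, against 22.4%, 24.6% and 26.4% in WT. Every HSA-LR library held a smaller share of Foxo4 and a larger share of Foxo3 than every WT library. Trim63 made up 46.1%, 42.2% and 41.5% of the RING ligase TPM in HSA-LR, against 35.1%, 35.5% and 33.1% in WT. The log2 ratio of Trim63 to Fbxo32 TPM, the leading wasting markers, was 1.78, 1.43 and 1.51 in HSA-LR, against 0.32, 0.71 and 0.80 in WT. Each of these 4 measures separated the groups with p = 0.1 (exact permutation test, two-sided), the smallest possible, and an adjusted p of 0.183 over 11 measures. The shares of Trim54 and Fbxo30 separated the groups too, with the same values of p. Shares within a family add up to a fixed total, so a smaller share of one gene raises those of the others. The Foxo4 and Foxo3 shares are therefore not separate measures, and neither are those of Trim63 and Trim54. A larger share is not a higher level, and Foxo3 and Fbxo30 had negative log2 fold changes (-0.23 and -0.29 by edgeR). Trim54 made up 40.5%, 46.4% and 46.1% of RING ligase TPM in HSA-LR, against 48.5%, 49.8% and 53.8% in WT. Fbxo30 made up 9.69%, 7.13% and 7.43% of F-box TPM in HSA-LR, against 4.49%, 6.03% and 6.41% in WT. Trim55 made up 13.4%, 11.5% and 12.3% of RING ligase TPM in HSA-LR, against 16.4%, 14.7% and 13.1% in WT, with overlap (exact permutation test, two-sided, p = 0.2). The share of Fbxo32 among the F-box proteins was 40.4%, 51.7% and 46.1% in HSA-LR, against 55.2%, 48.1% and 50.5% in WT, and overlapped between groups (exact permutation test, two-sided, p = 0.3).

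**Figure D4:**
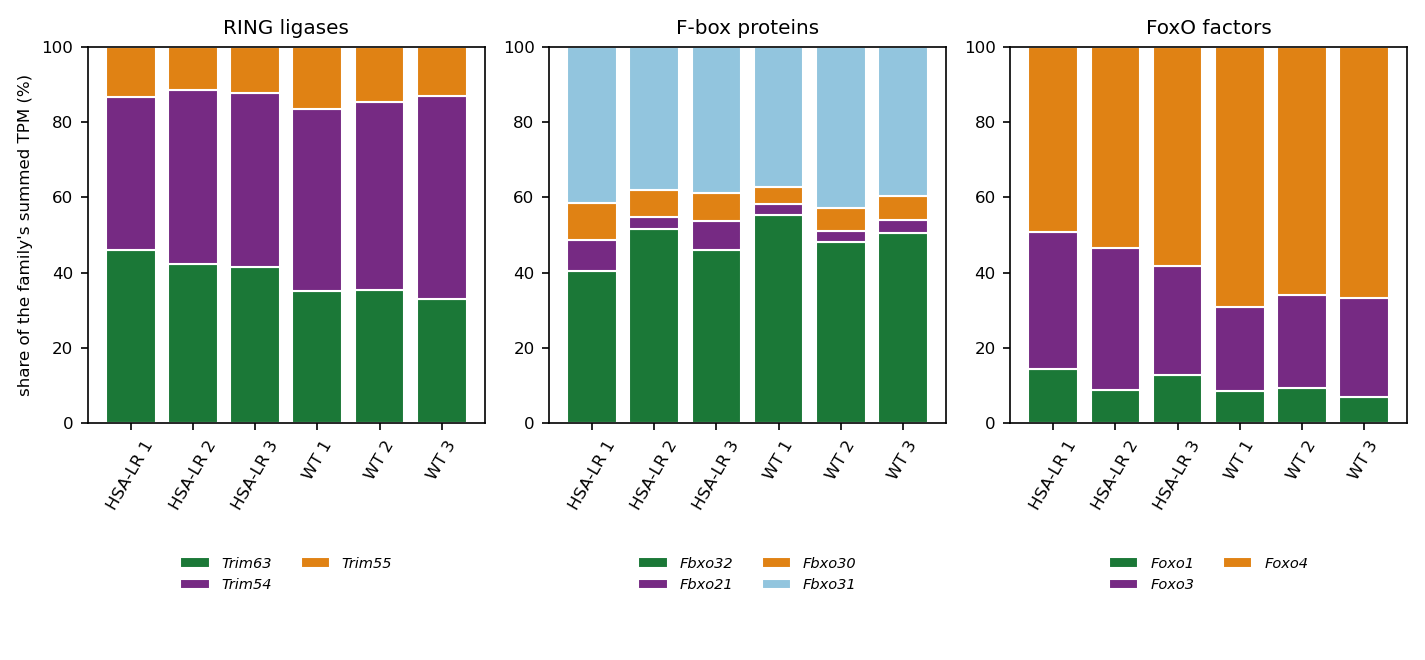
Share of each gene in the summed TPM of its family (percent, vertical axis) in 3 HSA-LR libraries (left) and 3 WT libraries (right). Foxo4 took 49.2% to 58.1% of FoxO TPM in HSA-LR and 66.0% to 69.1% in WT, and Trim63 took 41.5% to 46.1% of RING ligase TPM in HSA-LR and 33.1% to 35.5% in WT.

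The genes around these 10 were listed by function, and of 162 tested, 26 were lower and 5 higher in HSA-LR, against 7.48% lower and 4.28% higher of all genes tested. Leaving out HSA-LR replicate 2 turned these 31 called genes into 59. Leaving out HSA-LR replicate 3 gave 3, and dropping WT replicate 1, 2 or 3 gave 4, 5 or 4. Of 19 tested genes for FoxO acetylation, export and cofactors, 7 were lower and 0 higher (median log2 fold change -0.46). Among them Ppargc1a, the coactivator PGC-1α, which restrains FoxO3 activity in mouse muscle, averaged 22.7 ± 3.90 CPM in HSA-LR and 60.6 ± 14.5 CPM in WT (SD, n = 3 each, log2 fold change -1.42, adjusted p = 0.00711 by edgeR). Prkaa2, a catalytic subunit of AMP-activated kinase, averaged 120 ± 25.3 CPM in HSA-LR and 303 ± 17.7 CPM in WT (SD, n = 3 each, log2 fold change -1.34, adjusted p = 0.00521 by edgeR). Crebbp, a FoxO acetyltransferase, fell by 0.66 on the log2 scale. Of 17 tested insulin and IGF signalling genes, 6 were lower and 0 higher (median -0.33). Irs1, the adaptor of the insulin receptor, averaged 68.5 ± 6.93 CPM in HSA-LR and 171 ± 55.6 CPM in WT (SD, n = 3 each, log2 fold change -1.32, adjusted p = 0.0101 by edgeR). Irs2 (log2 fold change -1.19) and the receptor Insr (-0.74) fell too. With the 7SL and 7SK covariate Irs1 (adjusted p = 0.103 by edgeR) and Irs2 (adjusted p = 0.185 by edgeR) were not called.

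Of 30 other wasting ligases, E2 enzymes and ubiquitin genes, 7 were lower and 1 higher (median -0.33). Wwp1, a HECT ligase, fell by 1.04 on the log2 scale (adjusted p = 0.0145 by edgeR). Fbxl22, an F-box ligase of the Z-disc, rose, with 6.46 ± 0.905 CPM in HSA-LR and 2.66 ± 0.439 CPM in WT (SD, n = 3 each, log2 fold change 1.28, adjusted p = 0.0158 by edgeR). With limma-trend Fbxl22 was not called on log2(TPM + 0.1) (adjusted p = 0.377) or on TPM rescaled over protein coding genes (adjusted p = 0.0569). Of the 15 SCF core and neddylation genes, 0 were called by edgeR, DESeq2 or limma-voom, with 5 lower at an unadjusted p below 0.05, and those with the lowest p were Dcun1d1 (log2 fold change -0.60, adjusted p = 0.0665) and Ube2r2 (-0.57, adjusted p = 0.0860), by edgeR.

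Of 33 genes known as FoxO-responsive in muscle, 3 were lower and 1 higher, near the background, with a median of -0.01. Those that fell were the autophagy kinases Ulk1 (-1.03) and Ulk2 (-1.01) and the repressor Bcl6 (-0.93). Of 25 upstream wasting signals, 3 were lower and 3 higher (median -0.03). Smad3, the mediator of myostatin, fell by 1.06 and Hdac4, a denervation-responsive repressor, by 0.64 on the log2 scale, and with the 7SL and 7SK covariate Hdac4 was not called (adjusted p = 0.0569 by edgeR). Socs3, an inhibitor of cytokine signalling, rose, with 7.76 ± 2.16 CPM in HSA-LR and 2.93 ± 0.560 CPM in WT (SD, n = 3 each, log2 fold change 1.40, adjusted p = 0.0167 by edgeR). Of 23 literature substrates and partners of MuRF and atrogin-1, edgeR called 0 (5 lower and 1 higher at an unadjusted p below 0.05), DESeq2 called 5 lower and 1 higher, and limma-voom called 1 lower. Their median was -0.31, with titin (Ttn) at -1.29 (adjusted p = 0.0537) and Mybpc2 at -0.96 (adjusted p = 0.0684), by edgeR. With the libraries scaled to the myofibre markers, 4 of the 162 genes were lower and 5 higher. Prkaa2, Wwp1, Ulk2, Fbxl22 and Socs3 kept their calls. This scaling raised fold changes in general (all-gene median 0.51, against 0.04 with TMM), and Fbxl22 went from 1.28 to 1.72. A kept call therefore says less for Fbxl22 and Socs3, which rose, than for Prkaa2, Wwp1 and Ulk2, which fell. Ckm, Ttn, Mylpf, Tnnt3, Tnni2, Myh4 and Myh1 are both scaling markers and members of the substrate list. Their values under this scaling were therefore partly fixed by it, and the list's median is not separate from the myofibre marker levels.

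**Figure D5:**
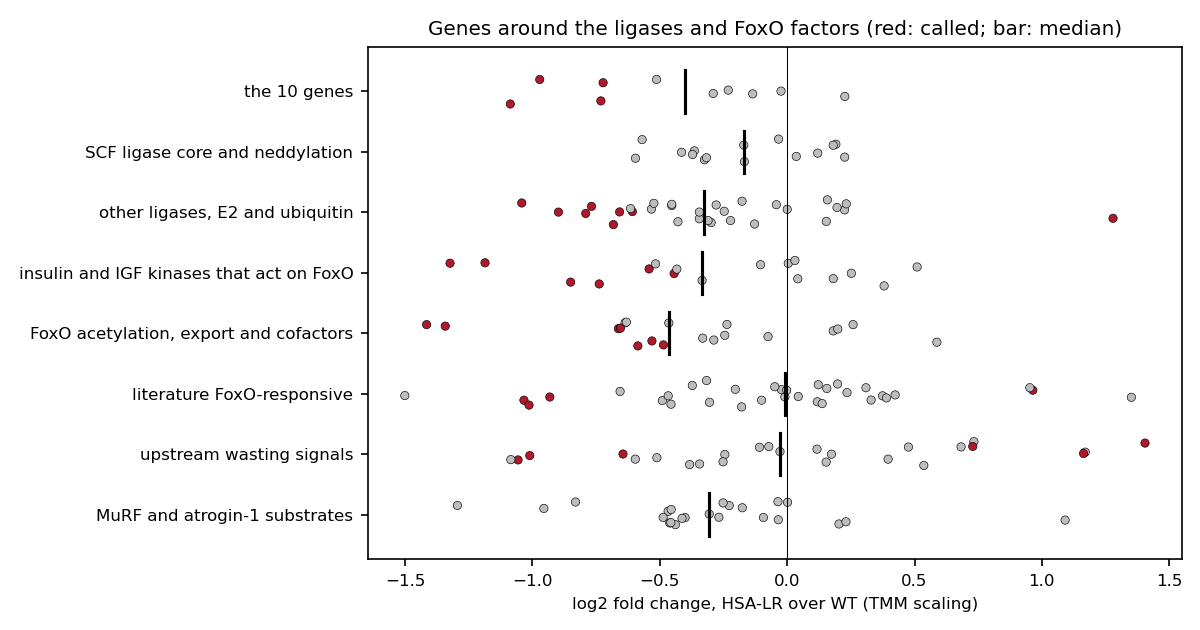
Log2 fold change (HSA-LR over WT, TMM scaling) of each tested gene in 8 groups, red where called, with a bar at each group's median. The median was -0.40 for the 10 genes, -0.46 for FoxO acetylation, export and cofactors, and -0.01 for FoxO-responsive genes.

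The genes whose pattern over the 6 libraries was nearest to Fbxo32, by root mean square difference of centred log2 CPM among 8819 protein coding genes, were Ubap2 (0.097), Mstn (0.104) and Xpr1 (0.105). Mstn, which encodes myostatin, the secreted inhibitor of muscle growth, averaged 31.1 CPM in HSA-LR and 62.6 CPM in WT (log2 fold change -1.01, adjusted p = 0.0222 by edgeR). Ubap2 had a log2 fold change of -0.88 (adjusted p = 0.0302 by edgeR). Xpr1, at -0.84, was not called (adjusted p = 0.0700 by edgeR). These genes were picked for matching Fbxo32 in the same libraries. Fold changes near that of Fbxo32 were therefore largely set by the choice and add no separate evidence. Those nearest to Trim63 were Psma3 (0.027), a proteasome subunit gene, Tcp1 (0.032), a chaperonin subunit gene, and Got2 (0.038), an aspartate aminotransferase gene.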

How the data were processed

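Quadriceps RNA was extracted with TRIzol, and stranded libraries were made from 0.5 ug of total RNA. The authors deposited 1 table per sample with RSEM expected counts (estimated counts, in which reads matching several genes are divided), TPM, FPKM (not used) and other columns, the length and effective length. The deposited TPM values correct these counts for length and give each library the same sum. RSEM 1.3.1, Bowtie2 and GRCm39 are named in the submitters' processing notes, with no annotation release. Symbols and coordinates came from GENCODE M39, matched for 53400 of 53947 genes.

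Expected counts were rounded, filtered with filterByExpr (13576 genes kept), TMM-normalised and compared between groups in edgeR 4.0.16 (R 4.3.3, limma 3.58.1) by the robust quasi-likelihood test, without covariates and with Benjamini-Hochberg adjustment over all genes tested. Genes were called at an adjusted p below 0.05. At these depths 3 counts correspond to 0.200 to 0.262 CPM on library totals before TMM scaling, a limit that covers counting error only. The procedure was tested on simulated data, where small changes were mostly missed, so genes that were not called may still differ. Shares were compared by exact permutation tests. The study states no test for these libraries.

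All 10 genes were named. From each functional list the rule took up to 3 called genes with the lowest p, or 2 where none was called, and for Fbxo32 and Trim63 the 3 protein coding genes of at least 5 CPM with the nearest pattern. 1 gene that the rule took is not reported here. The genes and lists were chosen with earlier results of these data known. As alternatives, limma-voom, DESeq2 1.42.0, limma-trend on TPM, other normalisations, filters and offsets, a replicate block and each library left out were run, and scaling to 11 myofibre markers was chosen after seeing the data.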

Additional observations from a re-analysis of the deposited data

How the results depend on the processing

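The 4 falls (Foxo4, Fbxo32, Trim55 and Fbxo31) kept their sign under 21 alternatives and the added myofibre marker scaling, and under the 21 Foxo4 also kept its call. The number of the 10 genes called lower, 4 as reported, was 2 with limma-trend on log2(TPM + 0.1) or the effective length offset, 1 with the 7SL and 7SK covariate, 0 with the myofibre marker scaling (chosen after seeing the data), and 1 to 5 with 1 library left out. All genes called, 1597 as reported (63.6% of them lower), numbered 2428 with DESeq2 (52.1% lower), 519 and 825 with limma-trend on log2(TPM + 0.1) and log2(TPM + 1), 635 with TPM rescaled over protein coding genes, 705 with the effective length offset, 935 with the covariate, 780 with the myofibre marker scaling (16.03% lower), and 166 to 3294 with 1 library left out. With upper-quartile factors 51.8% of the calls were lower. The median log2 fold change of all genes was -0.46 on log2(TPM + 0.1), -0.28 on log2(TPM + 1) and 0.13 on rescaled TPM. The 31 called list genes became 47 with DESeq2, 14 with limma-trend on log2(TPM + 0.1) or rescaled TPM, 15 with the offset, 19 with the covariate, 9 with the myofibre marker scaling, and 3 to 59 with 1 library left out.

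Both groups use the same replicate numbers, and no label says that they pair samples. Deviations from the group mean correlated at -0.02, -0.11 and 0.26 between libraries of the same number. Between libraries of different numbers the correlations were -0.18 to 0.19. With 3 libraries per group these values cannot decide whether the samples were paired. With replicate number as a block 799 genes were called, 18 of them in the lists and 3 among the 10 genes. Fbxo32 lost its call in that fit (adjusted p = 0.0676 by edgeR).

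Trim63 turned positive with rescaled TPM (0.043), upper-quartile factors (0.033), the covariate (0.21) and the myofibre marker scaling (0.41), and ranged from -0.22 to 0.088 with 1 library left out. Fbxo21 turned negative on log2(TPM + 0.1) (-0.47), log2(TPM + 1) (-0.30) and with the covariate (-0.066). Foxo1 was 0.018 with the length trend removed, 0.38 with the myofibre marker scaling, and -0.25 to 0.057 with 1 library left out. Under the myofibre marker scaling Foxo3 was 0.24 and Fbxo30 was 0.20. The share of Fbxo31 among the F-box proteins, -0.409 percentage points (HSA-LR minus WT) as reported, was 1.83 on expected counts and -1.73 to 1.09 with 1 library left out. The cause of these shifts was not tested.

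With 3 samples per group no exact test can go below p = 0.1.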
